A study of Mus musculus with 9 samples.

Results

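The 7 microRNAs described here are the miR-17 seed family of serum small extracellular vesicles: the guide arms miR-17-5p, miR-20a-5p, miR-20b-5p, miR-93-5p and miR-106b-5p, and miR-17-3p and miR-106b-3p, the partner arms cut from the other side of the miR-17 and miR-106b hairpins. They were chosen by name from 1169 mature microRNAs in the deposited count table, of which 1064 are listed as known. Small RNA was sequenced from vesicles precipitated out of mouse serum with a commercial reagent, in 9 libraries of 3 groups. The first group, HFD Sirt3 AKI (3 libraries), is from mice on a high fat diet whose genotype label is adipose-specific Sirt3 overexpression. The second, HFD WT (3 libraries), is from wild-type mice on the same diet, and the third, chow WT (3 libraries), is from wild-type mice on chow. The series title speaks of male mice. The labels used here give no age, length of feeding, promoter driving the transgene or number of animals per library. The library names of the HFD WT samples carry a SIRT3CKI code, and those of the HFD Sirt3 AKI samples SIRT3CKIcr, whereas the chow WT names carry WT. The messenger RNA of Sirt3 was not measured by this small RNA assay, so the genotype could not be checked in these libraries.

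A microRNA pairs with target messenger RNAs mainly through its seed, bases 2 to 8, and microRNAs with the same seed are expected to share many targets. The miR-17 family is best known for promoting cell proliferation and blood cell development, with cell cycle inhibitors among its established targets, and miR-93 and miR-106b are also abundant in blood cells. The guide arm is the strand that is usually loaded into Argonaute, while the partner arm of the same hairpin is more often degraded. Both terms are used here only as names. In these libraries the miR-17 and miR-106b hairpins gave more reads of the arm named partner, and loading was not measured. Serum vesicles receive RNA from many tissues, blood cells included, so their content does not report on 1 cell type. A lower level in bulk vesicle RNA can mean fewer vesicles that carry the microRNA or less of it per vesicle, and these cannot be told apart here.

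The mature sequences are shown because the guide arms differ outside the seed by few bases, which matters for how reads were assigned. In RefSeq (GRCm38.p6), 7 mature mouse microRNAs carry the seed AAAGUGC, and 6 of them were in the count table: the 5 guide arms and miR-106a-5p, which is named only for comparison. The seed is in capitals, and each sequence runs 5′ to 3′:
mmu-miR-17-5p: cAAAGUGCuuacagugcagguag
mmu-miR-20a-5p: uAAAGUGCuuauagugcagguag
mmu-miR-20b-5p: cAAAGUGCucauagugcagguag
mmu-miR-93-5p: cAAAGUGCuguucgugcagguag
mmu-miR-106b-5p: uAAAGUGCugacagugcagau
mmu-miR-106a-5p: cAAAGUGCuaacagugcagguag
mmu-miR-17-3p: aCUGCAGUgagggcacuuguag
mmu-miR-106b-3p: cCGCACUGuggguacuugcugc
Over the 15 pairs of these seed-sharing sequences, aligned from the 5′ end, the number of mismatches ran from 1, between miR-17-5p and miR-106a-5p, to 5, between miR-93-5p and miR-106b-5p. How reads that fit more than 1 of them were assigned is not stated in the sources used here, so the split between the closest members, and the low counts of miR-106a-5p, are uncertain. The partner arms have other seeds, and neither shares one with a guide arm.

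The precursors of the members lie in 3 polycistrons, transcripts that each hold several microRNA hairpins. In the RefSeq coordinates of GRCm38.p6, Mir17 lies at chr14:115043671-115043754 and Mir20a at chr14:115044157-115044263 on the plus strand, both within an exon of the long non-coding host gene Mir17hg in GENCODE M21. Mir93 (chr5:138165523-138165610) and Mir106b (chr5:138165737-138165818) lie on the minus strand within Mcm7, a gene for a subunit of the replicative helicase. Mir106b is intronic, and Mir93 falls in an exon of 1 annotated transcript. Mir20b (chrX:52742113-52742192, minus strand) had no annotated host gene. The deposited tables carry no coordinates, and the build named in the submitters' processing notes is another one (mm8). The hairpins of the pairs for which both arms are members are shown with the mature arms in capitals:
Mir17: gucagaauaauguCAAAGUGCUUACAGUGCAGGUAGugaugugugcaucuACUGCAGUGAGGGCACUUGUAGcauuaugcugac
Mir106b: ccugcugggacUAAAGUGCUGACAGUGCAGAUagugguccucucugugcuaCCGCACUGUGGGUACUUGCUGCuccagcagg

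Library totals were 1729416 to 2973432 counts in HFD Sirt3 AKI, 1953935 to 2162009 in HFD WT and 225002 to 306974 in chow WT, so chow WT values rest on far fewer reads. A batch label sets HFD Sirt3 AKI replicates 2 and 3 apart from the other 7 libraries. All 7 members were among the 414 microRNAs that passed the filter on low counts. Levels are given as normalised CPM, counts per 1000000 after scaling each library by TMM, a trimmed mean that assumes most microRNAs keep their level between libraries. Relative to library totals, this scaling shifted the log2 fold changes of single microRNAs by a median of 0.73 for HFD WT over chow WT. The median shift was -0.31 for HFD Sirt3 AKI over HFD WT and 0.42 for HFD Sirt3 AKI over chow WT. Directions that turn with the scaling are named as such below. The labels name separate samples and not separate animals, so p-values measure the spread between these samples, which may be technical.

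miR-93-5p dominated the family in every group. It held 95.95% ± 0.45 of the counts of the 6 seed-sharing microRNAs in HFD Sirt3 AKI, 94.8% ± 0.26 in HFD WT and 93.7% ± 0.51 in chow WT (SD, n = 3 each). By mean normalised CPM it ranked 5 in HFD Sirt3 AKI, 4 in HFD WT and 5 in chow WT among the 414 tested microRNAs. The next most abundant guide arm, miR-20a-5p, held 3.29% of the family in HFD Sirt3 AKI, 4.42% in HFD WT and 5.20% in chow WT. miR-17-5p, for which the family is named, held 0.243% in HFD Sirt3 AKI, 0.276% in HFD WT and 0.446% in chow WT. miR-106b-5p was the rarest member, with 4 to 28 counts per library in chow WT and 25 to 88 in the other groups. Its coefficient of variation was 34.3% in HFD Sirt3 AKI, 11.2% in HFD WT and 76.3% in chow WT. Together the 7 members took 3.57% ± 0.404 of all counts in HFD Sirt3 AKI, 5.15% ± 0.268 in HFD WT and 4.80% ± 0.231 in chow WT.

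**Figure D1:**
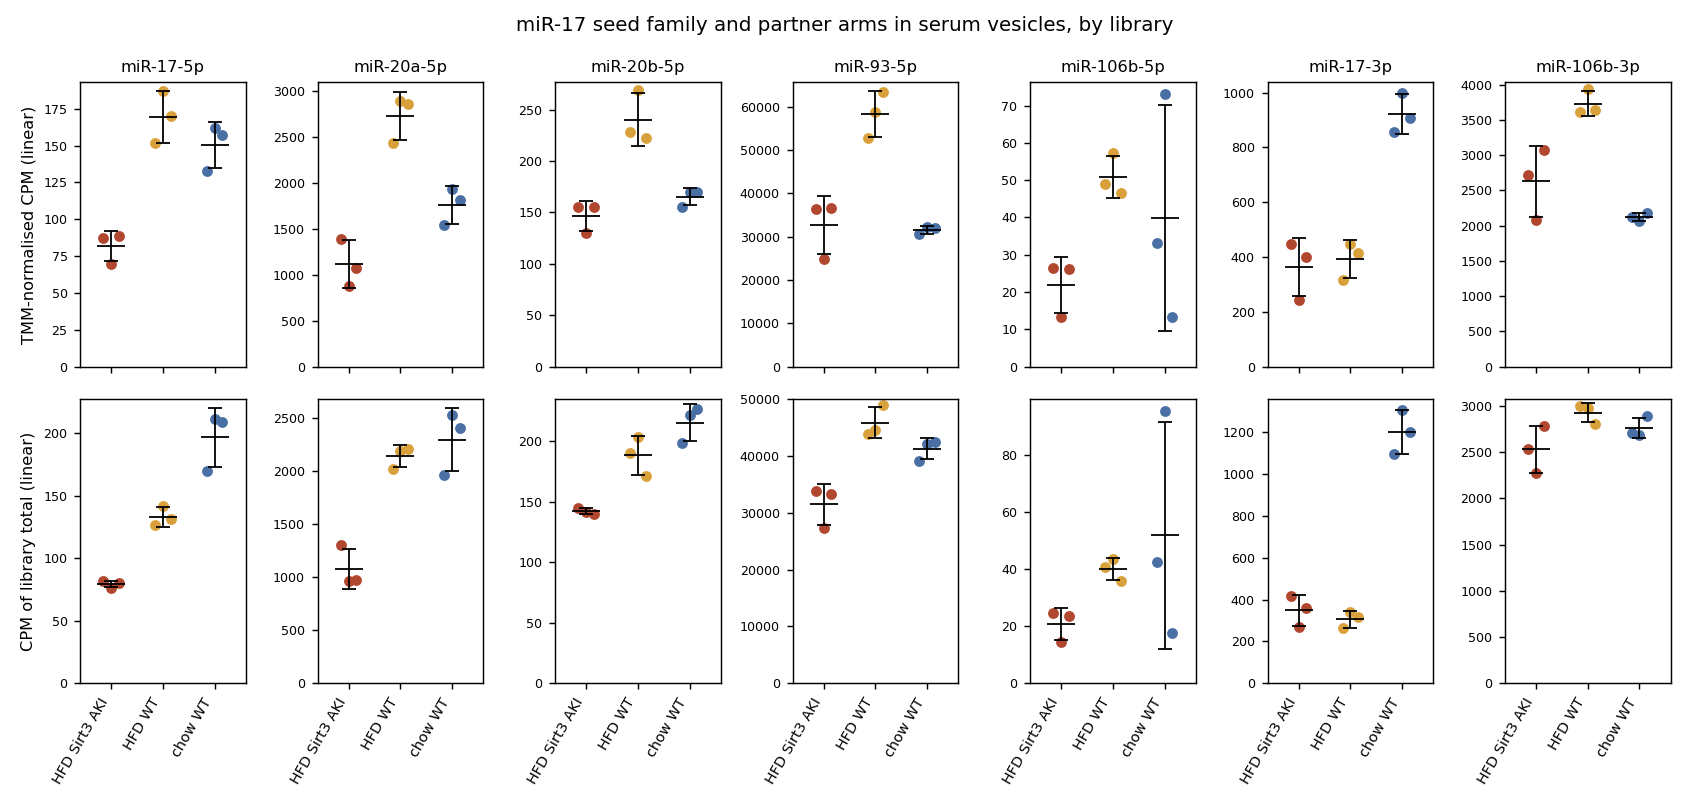
Level of each of the 7 members in every library, as TMM-normalised CPM (top) and as CPM of the library total (bottom), on linear axes from 0 that differ between members. Points are libraries, and lines are group means with SD. miR-93-5p averages 32650 normalised CPM in HFD Sirt3 AKI, 58396 in HFD WT and 31589 in chow WT, and the 5 guide arms and miR-106b-3p lie lower in HFD Sirt3 AKI than in HFD WT on both scales.

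HFD Sirt3 AKI was compared with HFD WT to ask how adipose Sirt3 overexpression bears on the vesicle microRNAs of mice on the same diet. A total of 5 of 7 members were lower in HFD Sirt3 AKI by edgeR's quasi-likelihood test, where 7.49% of all tested microRNAs were called lower, and none was called higher, where 1.45% were (8.94% in either direction). The members called were the guide arms miR-17-5p, miR-20a-5p, miR-20b-5p and miR-93-5p and the partner arm miR-106b-3p. The median log2 fold change over the 7 members was -0.84, beside -0.02 over all tested microRNAs. In both normalised CPM and share of the library total, 6 of 7 members did not overlap between the groups and were lower in HFD Sirt3 AKI. Of all tested microRNAs, 17.4% did so in normalised CPM and 9.18% in share of the total.

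miR-20a-5p, from the miR-17 to miR-92a-1 polycistron, had 1389, 880 and 1073 normalised CPM in HFD Sirt3 AKI, against 2426, 2888 and 2858 in HFD WT. Every HFD Sirt3 AKI library was below every HFD WT library. Its level was 0.409 times that of HFD WT, a log2 change of -1.29 (SE 0.17, edgeR adjusted p = 0.00318). Its hairpin neighbour miR-17-5p had 87.2, 69.8 and 88.5 normalised CPM in HFD Sirt3 AKI, against 151.9, 187.0 and 169.9 in HFD WT, again without overlap. The log2 fold change was -1.05 (SE 0.18, edgeR adjusted p = 0.00473).

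miR-93-5p, the arm that supplies most reads of the family, had 36297, 24954 and 36698 normalised CPM in HFD Sirt3 AKI, against 52829, 58909 and 63449 in HFD WT. The groups did not overlap, and HFD Sirt3 AKI replicate 2 was the lowest library. The log2 fold change was -0.84 (SE 0.15, edgeR adjusted p = 0.00559), or 0.559 times the HFD WT level. miR-20b-5p, the X-linked member, had 155.3, 129.6 and 155.0 normalised CPM in HFD Sirt3 AKI, against 228.6, 269.7 and 222.4 in HFD WT. This was a log2 change of -0.71 (SE 0.15, edgeR adjusted p = 0.0139), which was no longer called when libraries were scaled by their totals (-0.41, edgeR adjusted p = 0.0825). Leaving out 1 library also ended the call in 3 cases: HFD Sirt3 AKI replicate 3 (-0.74, edgeR adjusted p = 0.0565), replicate 2 of HFD WT (-0.61, with 0.0954) and its replicate 3 (-0.75, with 0.0627). miR-106b-5p had 26.3, 13.2 and 26.2 normalised CPM in HFD Sirt3 AKI, against 49.0, 57.3 and 46.5 in HFD WT. These values, which rest on 25 to 73 counts per library in HFD Sirt3 AKI and 70 to 88 in HFD WT, did not overlap either, but the difference of -1.21 (SE 0.44) did not pass the test (edgeR adjusted p = 0.108). It passed without HFD Sirt3 AKI replicate 1 (-1.35, edgeR adjusted p = 0.0479).

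The partner arms differed from each other in this comparison. miR-106b-3p had 2718, 2080 and 3079 normalised CPM in HFD Sirt3 AKI, against 3614, 3938 and 3640 in HFD WT. Its log2 change of -0.51 (SE 0.14) passed narrowly (edgeR adjusted p = 0.0497) and did not pass with libraries scaled by DESeq2 size factors (-0.40, edgeR adjusted p = 0.0996), by library totals (-0.21, edgeR adjusted p = 0.190) or with a block for replicate numbers (-0.52, edgeR adjusted p = 0.0684). With 1 library left out, its edgeR adjusted p ran from 0.0415 to 0.204, above 0.05 when HFD Sirt3 AKI replicate 2 or any 1 of the 6 HFD WT and chow WT libraries was left out. miR-17-3p had 445.8, 244.4 and 399.5 normalised CPM in HFD Sirt3 AKI, against 314.9, 448.3 and 412.9 in HFD WT. The groups overlapped, and the log2 change of -0.11 (SE 0.22, edgeR adjusted p = 0.788) turned to 0.19 with library totals.

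The batch label moved with this comparison, since 2 of 3 HFD Sirt3 AKI libraries carry a label that no HFD WT library has. With the batch label as a term, edgeR called 0 of 7 members, and 5 had an unadjusted p below 0.05. In the edgeR fit without that term, 6 of 7 members and 109 of 414 tested microRNAs had an unadjusted p below 0.05. The members' count with the term therefore cannot be read as a result without its own background. With the batch term the log2 fold changes were -0.97 for miR-20a-5p (edgeR adjusted p = 0.0652), -0.96 for miR-17-5p (0.172), -0.69 for miR-93-5p (0.188), -0.63 for miR-20b-5p (0.239) and -0.46 for miR-106b-3p (0.380). Within the larger batch, 1 HFD Sirt3 AKI library stands against 3 HFD WT libraries, so effect sizes alone are given. For the members with the lowest adjusted p over all 9 libraries, the log2 fold changes there were -0.83 (miR-20a-5p), -0.82 (miR-17-5p) and -0.54 (miR-93-5p). When HFD Sirt3 AKI and HFD WT were fitted without chow WT, miR-20a-5p alone of the members was called (-1.16, edgeR adjusted p = 0.0471).

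Some blood cell microRNAs were lower in HFD Sirt3 AKI as well. Of the 4 red cell microRNAs, 3 were lower in HFD Sirt3 AKI, with log2 fold changes of -1.19 for miR-144-3p, -1.21 for miR-144-5p and -0.83 for miR-451a, and miR-486a-5p was not called (-0.23, edgeR adjusted p = 0.252). Their summed level, with miR-486a-5p, was 144659 to 203611 normalised CPM in HFD Sirt3 AKI, against 210418 to 250310 in HFD WT. As a share of all counts it overlapped, at 15.8% to 18.4% in HFD Sirt3 AKI and 17.3% to 18.9% in HFD WT. The log2 ratio of miR-451a to miR-23a-3p, a usual index of red cell lysis, was 2.56 ± 0.34 in HFD Sirt3 AKI and 3.16 ± 0.22 in HFD WT (SD, n = 3 each). Of the 3 myeloid and platelet microRNAs, 1 was lower, and their sum was 13619 to 18554 in HFD Sirt3 AKI and 19711 to 21632 in HFD WT. That sum also overlapped as a share of counts, at 1.44% to 1.73% in HFD Sirt3 AKI and 1.62% to 1.67% in HFD WT. The lymphocyte microRNAs miR-150-5p (0.24, edgeR adjusted p = 0.219) and miR-342-3p (0.19, edgeR adjusted p = 0.364) were not called. Their sum overlapped in normalised CPM, at 10729 to 13674 in HFD Sirt3 AKI and 9439 to 10959 in HFD WT. As a share of counts it was 1.13% to 1.24% in HFD Sirt3 AKI, above 0.714% to 0.907% in HFD WT. Both endothelial microRNAs were lower. The hepatocyte miR-122-5p was higher by 1.68 (edgeR adjusted p = 0.0412), and the sum with miR-192-5p was 8813 to 31065 in HFD Sirt3 AKI and 7099 to 7547 in HFD WT. Among the 4 epithelial microRNAs, all with log2 fold changes above 0, miR-205-5p was called higher (1.11, edgeR adjusted p = 0.0117). Their sum was 6718 to 14864 normalised CPM in HFD Sirt3 AKI and 3893 to 5267 in HFD WT. As a share of counts it was 0.627% to 1.62% and 0.300% to 0.438%. Over all 20 marker microRNAs, 2 were higher and 6 lower, where 1.45% of all tested microRNAs were called higher and 7.49% lower. None of these 20 markers was at 0 in any library. Their part in the members' result was not tested.

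**Figure D2:**
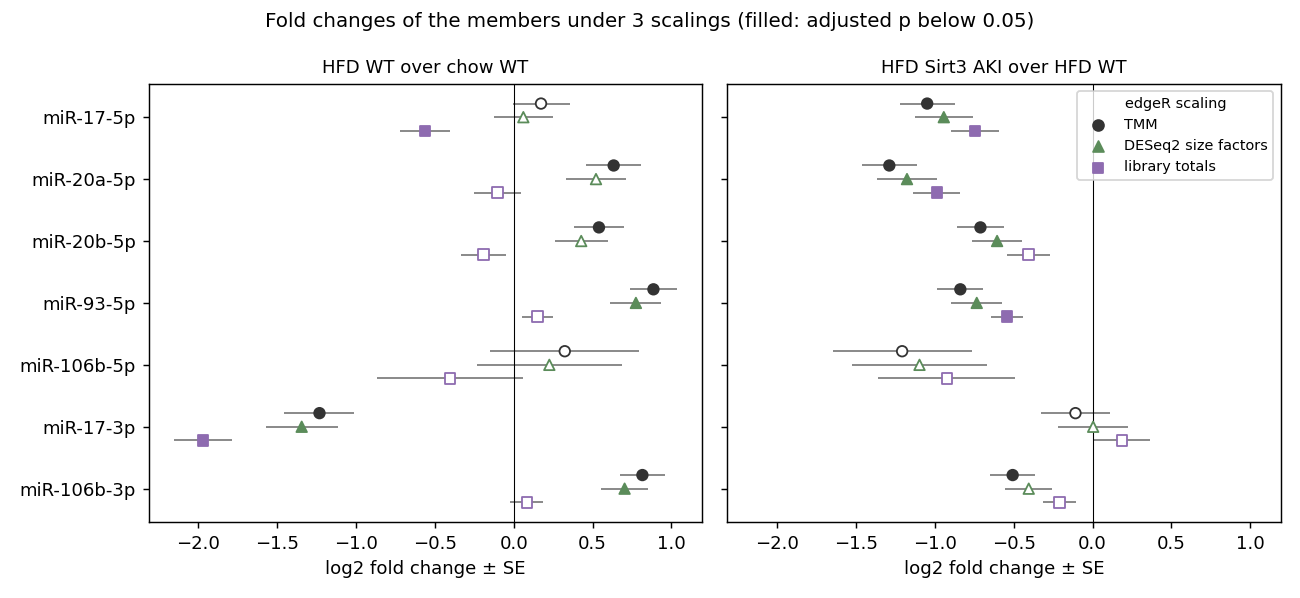
Log2 fold changes (± SE) of the members in HFD WT over chow WT and in HFD Sirt3 AKI over HFD WT, from edgeR with 3 ways of scaling the libraries, filled where the adjusted p was below 0.05. In HFD Sirt3 AKI over HFD WT the 5 guide arms and miR-106b-3p stay below 0 under each scaling, whereas in HFD WT over chow WT miR-17-5p, miR-20a-5p, miR-20b-5p and miR-106b-5p cross 0 when library totals are used.

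HFD WT was compared with chow WT for the effect of the diet in mice labelled wild type. Since the codes in the library names differ between these groups, a difference of genotype beside the diet cannot be told apart here. By edgeR, 4 of 7 members were higher in HFD WT, where 21.5% of all tested microRNAs were called higher, and 1 of 7 was lower, where 16.2% were (37.7% in either direction). The members called higher were miR-93-5p, miR-106b-3p, miR-20a-5p and miR-20b-5p, and miR-17-3p was the member called lower. These calls for higher levels hold on the TMM scale: with library totals miR-93-5p (0.15, edgeR adjusted p = 0.268) and miR-106b-3p (0.08, edgeR adjusted p = 0.585) were not called, and miR-20a-5p (-0.10) and miR-20b-5p (-0.19) turned direction without being called. The median log2 fold change was 0.54 over the members and 0.15 over all tested microRNAs. In normalised CPM the groups did not overlap for 4 members that were higher in HFD WT, as for 30.9% of tested microRNAs, and for 1 that was lower, as for 23.9%. In share of the library total, miR-93-5p lay above chow WT (8.94% of tested microRNAs did), and miR-17-5p and miR-17-3p lay below it (46.4% did). The same HFD WT libraries stand in this comparison and in the preceding one, so a high value in them raises 1 fold change and lowers the other.

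miR-93-5p had 52829, 58909 and 63449 normalised CPM in HFD WT, against 30615, 32235 and 31916 in chow WT. The groups did not overlap, and chow WT libraries lay close together, with a coefficient of variation of 2.72%. The log2 fold change was 0.89 (SE 0.15, edgeR adjusted p = 6.75e-04), or 1.85-fold. As a share of the library total, it was 43926, 44577 and 48919 CPM in HFD WT, against 39104, 42133 and 42444 in chow WT, still without overlap but much closer. miR-106b-3p had 3614, 3938 and 3640 normalised CPM in HFD WT, against 2124, 2059 and 2172 in chow WT, a log2 change of 0.82 (SE 0.14, edgeR adjusted p = 0.00104). As a share of the total it overlapped, at 2807 to 3005 CPM in HFD WT and 2691 to 2889 in chow WT.

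miR-20a-5p had 2426, 2888 and 2858 normalised CPM in HFD WT, against 1533, 1928 and 1805 in chow WT. The log2 fold change was 0.63 (SE 0.17, edgeR adjusted p = 0.0140), and the call was lost with DESeq2 size factors (0.52, edgeR adjusted p = 0.0512) and without chow WT replicate 1 (edgeR adjusted p = 0.0683) or HFD WT replicate 3 (edgeR adjusted p = 0.0511). miR-20b-5p had 228.6, 269.7 and 222.4 normalised CPM in HFD WT, against 155.6, 169.6 and 170.4 in chow WT, a log2 change of 0.54 (SE 0.16, edgeR adjusted p = 0.0208). That call was lost with DESeq2 size factors (0.43, edgeR adjusted p = 0.0639) and when replicate 2 of HFD WT or any 1 of the chow WT libraries was left out (0.46 to 0.59, edgeR adjusted p = 0.0517 to 0.0870). miR-17-5p had 151.9, 187.0 and 169.9 normalised CPM in HFD WT and 132.6, 161.8 and 157.1 in chow WT, which overlapped. Its log2 change of 0.17 (SE 0.18) did not pass the test (edgeR adjusted p = 0.499), and with library totals it was -0.56 (edgeR adjusted p = 0.0172), lower in HFD WT. miR-106b-5p had 49.0, 57.3 and 46.5 normalised CPM in HFD WT, against 33.2, 73.1 and 13.4 in chow WT. The chow WT values rest on 13, 28 and 4 counts and straddle those of HFD WT, and the difference of 0.32 (SE 0.47) was not called (edgeR adjusted p = 0.647).

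miR-17-3p, the partner strand of miR-17, was the member whose diet difference was called under each scaling. It had 314.9, 448.3 and 412.9 normalised CPM in HFD WT, against 856.9, 999.4 and 905.7 in chow WT. Every HFD WT library was below every chow WT library, at 0.426 times the level (log2 fold change -1.23, SE 0.22, edgeR adjusted p = 0.00127). With library totals the log2 fold change was -1.97, and the call was kept under every alternative run. On both scales the groups did not overlap, and the counts of 271 to 383 in chow WT are well above the filter. Marker microRNAs moved with the diet too. Of the 20, 10 were higher and 4 lower in HFD WT, where 21.5% of all tested microRNAs were called higher and 16.2% lower. The largest changes lay outside the red cell list, at -2.86 for miR-200a-3p, -2.18 for miR-200b-3p and 1.59 for miR-223-3p. The epithelial list was split, with miR-205-5p called higher (0.74) and miR-203-3p not called (0.24). In the myeloid and platelet list, miR-142a-3p was called higher (0.35) and miR-142a-5p was not called (-0.08). The summed red cell level was 210418 to 250310 normalised CPM in HFD WT, against 100111 to 119397 in chow WT. As a share of all counts that sum was 17.9% ± 0.897 in HFD WT and 13.9% ± 1.18 in chow WT (SD, n = 3 each). Within the red cell list miR-486a-5p was higher (1.47), miR-144-5p was lower (-0.77), and miR-144-3p and miR-451a were not called. The part of the marker microRNAs in the members' result was not tested.

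Against chow WT, 3 of 7 members were lower in HFD Sirt3 AKI by edgeR, where 19.6% of all tested microRNAs were called lower, and none was higher, where 20.3% were (39.9% in either direction). miR-17-3p was lower at 445.8, 244.4 and 399.5 normalised CPM in HFD Sirt3 AKI, against 856.9, 999.4 and 905.7 in chow WT (log2 fold change -1.34, SE 0.22, edgeR adjusted p = 7.17e-04). Its order of levels was thus chow WT on top, with HFD Sirt3 AKI and HFD WT not differing beyond their spread. The other members called lower were miR-17-5p (log2 fold change -0.88, SE 0.18, edgeR adjusted p = 0.00301) and miR-20a-5p (-0.66, SE 0.17, edgeR adjusted p = 0.0108). The miR-20a-5p call was lost with the batch label as a term (-0.34, edgeR adjusted p = 0.239), and when either replicate 2 of HFD Sirt3 AKI (-0.34, edgeR adjusted p = 0.0771) or replicate 2 of chow WT (-0.56, edgeR adjusted p = 0.0597) was left out. miR-106b-5p was not called (-0.88, SE 0.48, edgeR adjusted p = 0.171), but passed without chow WT replicate 3 (-1.25, edgeR adjusted p = 0.0447), the library with 4 counts.

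miR-93-5p averaged 32650 ± 6668 normalised CPM in HFD Sirt3 AKI and 31589 ± 858 in chow WT (SD, n = 3 each), with HFD WT above both. Its log2 change of 0.05 (SE 0.15, edgeR adjusted p = 0.827) became -0.39 with library totals (edgeR adjusted p = 0.0102). Without HFD Sirt3 AKI replicate 2, it was 0.36 (edgeR adjusted p = 0.0113). miR-20b-5p, at 146.6 ± 14.7 in HFD Sirt3 AKI and 165.2 ± 8.36 in chow WT, and miR-106b-3p, at 2625 ± 506 in HFD Sirt3 AKI and 2119 ± 56.9 in chow WT, were not called (-0.17, edgeR adjusted p = 0.424, and 0.31, edgeR adjusted p = 0.110). Without HFD Sirt3 AKI replicate 2, miR-106b-3p was called higher (0.60, edgeR adjusted p = 2.41e-04).

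The ratio of the 3p to the 5p arm of 1 hairpin is taken within a library and does not depend on the scaling. The miR-17 hairpin gave more 3p than 5p reads in every library, so the arm named guide was the rarer one. The ratio was 5.10, 3.49 and 4.50 in HFD Sirt3 AKI, 2.07, 2.39 and 2.43 in HFD WT, and 6.41, 6.14 and 5.72 in chow WT, and no group overlapped another. Over 103 hairpins with both arms tested, limma called 36 ratios different between HFD WT and chow WT (35.0%), and miR-17 was among them with a difference of -1.41 on the log2 scale (SE 0.21, limma adjusted p = 0.00226). Between HFD Sirt3 AKI and HFD WT, limma called 0 of 103 ratios (0%), and 19 had an unadjusted p below 0.05. The miR-17 difference for these groups was 0.91 (SE 0.21, limma adjusted p = 0.0754), and was called when arms with a mean count under 20 were left out (limma adjusted p = 0.0222). Within the larger batch it was 1.15, which rests on 1 HFD Sirt3 AKI library. Between HFD Sirt3 AKI and chow WT, where limma called 33 ratios (32.0%), it was -0.50 (SE 0.21, limma adjusted p = 0.112).

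The miR-106b hairpin was further tilted to the 3p arm. The ratio was 102.6, 154.2 and 116.4 in HFD Sirt3 AKI, 73.4, 68.3 and 77.8 in HFD WT, and 61.7, 27.7 and 144.6 in chow WT. The chow WT ratios spread most, and their 5p counts were 4 to 28. The miR-106b ratio ranked 11 from the highest among the 103 hairpins, miR-17 ranked 34, and 43 of the 103 favoured the 3p arm. The HFD Sirt3 AKI libraries lay above the HFD WT ones without overlap, but the log2 difference of 0.75 (SE 0.52) was not called (limma adjusted p = 0.502). That of HFD WT over chow WT was 0.22 (SE 0.52, limma adjusted p = 0.818). The miR-93 hairpin, in contrast, gave mostly the 5p arm, with a log2 ratio of -7.96 ± 0.22 in HFD Sirt3 AKI, -8.65 ± 0.34 in HFD WT and -7.61 ± 0.26 in chow WT (SD, n = 3 each). Its ratio differed by -1.04 in HFD WT over chow WT (SE 0.24, limma adjusted p = 0.00953).

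**Figure D3:**
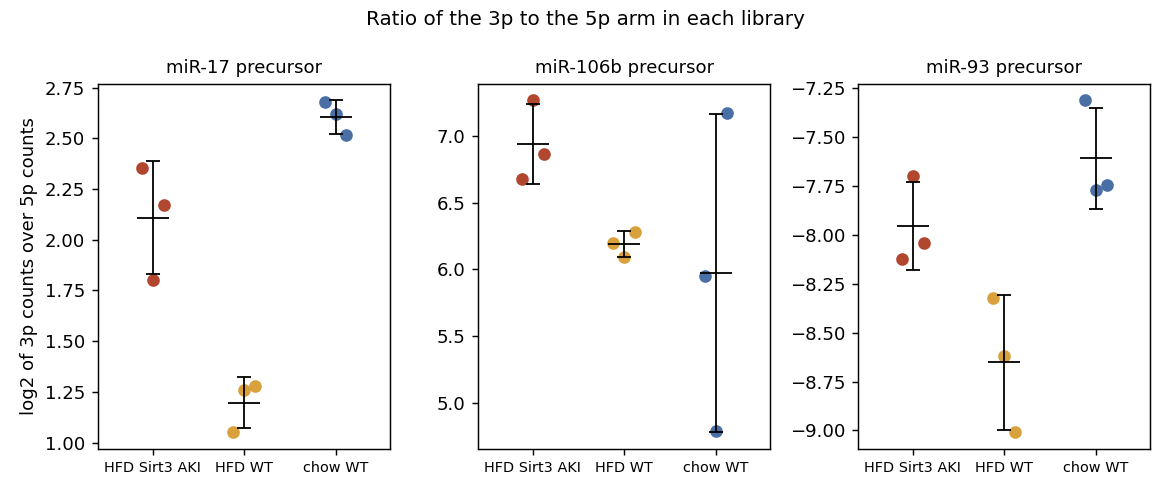
Ratio of 3p to 5p counts (log2) of the member hairpins in each library, with 1 point per library and lines at the group mean with SD, on axes that differ between hairpins and do not start at 0. miR-17 averages 2.11 in HFD Sirt3 AKI, 1.20 in HFD WT and 2.60 in chow WT, whereas miR-106b is higher and its chow WT points spread most.

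The other microRNAs transcribed with the members were described from a list of 21, of which 17 were in the count table and 12 were tested. Between HFD Sirt3 AKI and HFD WT, edgeR called 0 of 12, where 8.94% of all tested microRNAs were called. An unadjusted edgeR p below 0.05 was found for 3 of the 12, and for 109 of all 414 tested microRNAs. The median log2 fold change of the 12 was -0.35, and -0.06 with library totals. miR-92a-3p, from the same transcript as miR-17 and miR-20a, averaged 20807 ± 3672 normalised CPM in HFD Sirt3 AKI and 16185 ± 2064 in HFD WT (SD, n = 3 each), with a log2 change of 0.36 (SE 0.15, edgeR adjusted p = 0.148). It was the 1 product called higher by DESeq2 (0.47, adjusted p = 0.0479) and by edgeR with library totals (0.66, adjusted p = 0.00995). The same held for limma on TPM (0.66, adjusted p = 0.00888). Within the larger batch, which holds 1 HFD Sirt3 AKI library, its log2 change was 0.57, given as an effect size only. miR-92a-3p was not called by edgeR with DESeq2 size factors (0.47, adjusted p = 0.0828). Nor was it called after adding a term for batch (0.42, edgeR adjusted p = 0.400). Identical miR-92a-3p also comes from the polycistron that holds Mir20b, so its reads cannot be given to 1 transcript. miR-19b-3p, a member of the miR-19 family with another seed, was at -0.48 (edgeR adjusted p = 0.117) and miR-18a-5p at -0.96 (edgeR adjusted p = 0.0770).

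Of the same 12, edgeR called 3 higher in HFD WT than in chow WT and none lower, where 21.5% of all tested microRNAs were called higher and 16.2% lower. Their median log2 fold change was 0.87, and 0.14 with library totals, beside 0.15 and -0.57 over all tested microRNAs. The 3 were miR-92a-3p (2.18, SE 0.16, edgeR adjusted p = 4.47e-06), miR-25-3p (1.37, SE 0.16, edgeR adjusted p = 6.02e-05) and miR-18a-3p (1.17, SE 0.27, edgeR adjusted p = 0.00634). With library totals miR-92a-3p (1.44) and miR-25-3p (0.64) were still called higher, and 3 others of the 12 were called lower. Ratios within a library, which do not depend on the scaling, are given as a description with no test. The log2 ratio of miR-20a-5p to miR-92a-3p, whose reads may come from both polycistrons, was -4.23 ± 0.26 in HFD Sirt3 AKI, -2.57 ± 0.09 in HFD WT and -1.03 ± 0.10 in chow WT. That of miR-93-5p to miR-25-3p, from the Mcm7 polycistron, was 0.32 ± 0.03 in HFD Sirt3 AKI, 0.84 ± 0.15 in HFD WT and 1.34 ± 0.25 in chow WT (SD, n = 3 each). That of miR-20a-5p to miR-17-5p, guide arms of 1 polycistron, was 3.75 ± 0.21 in HFD Sirt3 AKI, 4.00 ± 0.06 in HFD WT and 3.53 ± 0.03 in chow WT.

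**Figure D4:**
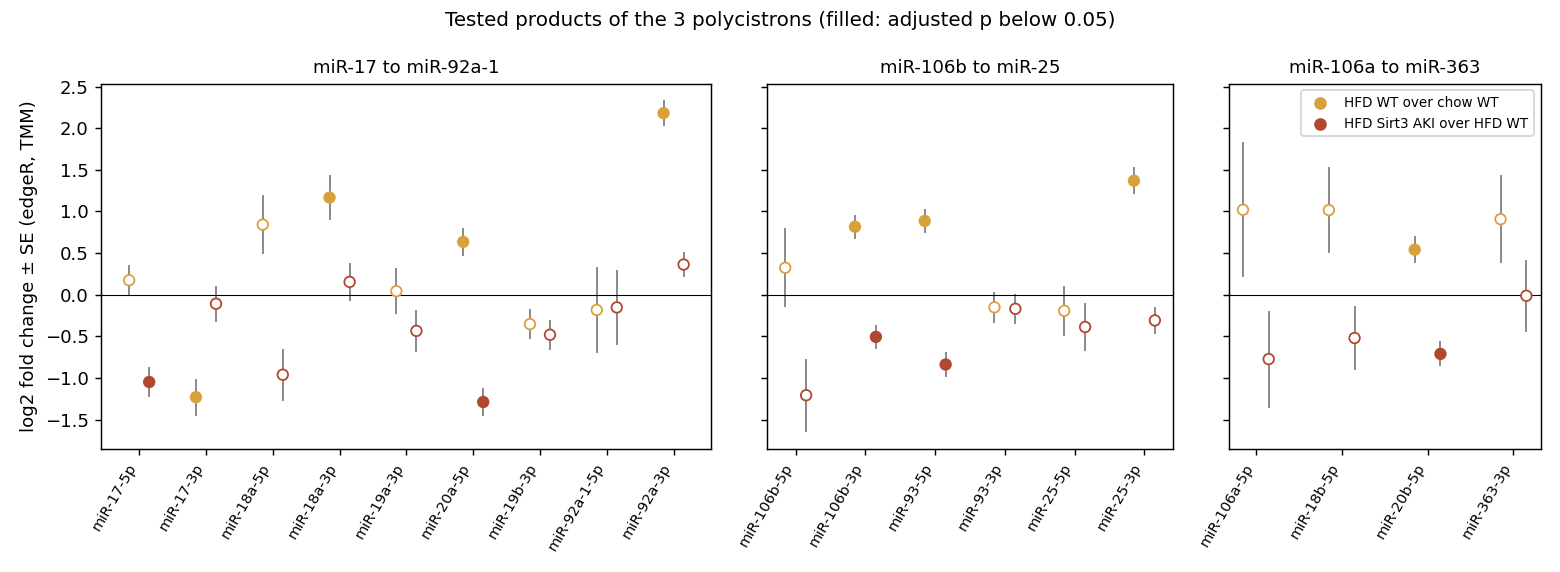
Log2 fold changes (± SE, edgeR with TMM scaling) of the tested products of the 3 polycistrons in HFD WT over chow WT and in HFD Sirt3 AKI over HFD WT, filled where the adjusted p was below 0.05. Of the products shown, miR-17-5p, miR-20a-5p, miR-106b-3p, miR-93-5p and miR-20b-5p were called lower in HFD Sirt3 AKI over HFD WT, and miR-92a-3p had the highest value in HFD WT over chow WT (2.18).

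miR-106a-5p, which shares the seed but is not a member, had 16, 14 and 6 counts in HFD Sirt3 AKI, 14, 10 and 21 in HFD WT, and 4, 1 and 0 in chow WT. Its log2 fold changes were -0.77 between HFD Sirt3 AKI and HFD WT (edgeR adjusted p = 0.421) and 1.02 between HFD WT and chow WT (edgeR adjusted p = 0.376), neither of them called.

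Across the 9 libraries, the log2 levels of the guide arms followed each other unevenly, as a description of libraries that share groups and scaling. Pearson's r was 0.93 between miR-17-5p and miR-20a-5p, 0.92 between miR-20b-5p and miR-93-5p, and 0.62 between miR-17-5p and miR-93-5p. The partner arm miR-106b-3p lay closer to miR-93-5p (0.93) than to miR-106b-5p (0.47), the arm of its own hairpin, whose counts are few. miR-17-3p was at 0.49 with miR-17-5p and at -0.25 with miR-93-5p. Among the 160 other microRNAs with a mean of at least 100 normalised CPM, those most like miR-93-5p were let-7j (0.97), let-7d-5p (0.97), miR-107-3p (0.93), let-7i-5p (0.92) and let-7b-5p (0.92). Those most like miR-106b-3p were miR-16-5p (0.96), miR-423-5p (0.96), miR-191-5p (0.95), miR-103-3p (0.93) and let-7j (0.91).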

How the data were processed

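The authors deposited whole-number read counts per mature microRNA, and a TPM table in which each value matched, within 5.00e-05, 1000000 times the count over the library total. Bowtie 0.12.2 and mm8 are named, without a role, per the submitters' processing notes; trimming, the microRNA reference and the treatment of reads with several matches are not given there or in the labels. Counts were the basis of all tests, in R 4.3.3 with edgeR 4.0.16: filterByExpr with a minimum count of 10 (the 755 microRNAs left out held 0.0543% of counts), TMM scaling, group means over the 9 libraries, quasi-likelihood tests, and Benjamini-Hochberg adjustment over 414 microRNAs at 0.05. Non-overlap was read over the same 414. Arm ratios, log2 of (3p count + 0.5) over (5p count + 0.5), were compared with limma 3.58.1 over 103 hairpins. DESeq2 1.42.0 and limma on log2(TPM + 1) were alternatives. No identical libraries were found: replicates differed by more than sampling noise. edgeR and limma steps were checked on simulated counts. Named microRNAs were the members, the tested polycistron products, marker microRNAs that moved beside a result, miR-106a-5p, and the 5 most similar to the most abundant guide and partner arm. The marker microRNAs named, and miR-106a-5p for its own paragraph, were picked after values were seen. The members and lists were chosen with earlier results of these data known.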

Additional observations from a re-analysis of the deposited data

How the results depend on the processing

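The chow WT libraries hold the fewest counts, and miR-106b-5p the fewest of the members. Members changed in HFD WT over chow WT numbered 5, but 3 with DESeq2 size factors, 2 with library totals, 2 by limma on TPM, and 3 to 5 when 1 library was left out (3 without chow WT replicate 1). All microRNAs changed were 156, and 116 to 188 without 1 library. In HFD Sirt3 AKI over HFD WT, 5 members changed, but 3 with library totals, 3 with limma on TPM, 1 with only these groups and 0 with the batch label as a term. Leaving out 1 library gave 3 to 6 (3 without HFD WT replicate 2 or 3, 6 without HFD Sirt3 AKI replicate 1). The 37 microRNAs changed there became 24 with DESeq2 size factors, 65 with DESeq2, 3 with only these groups, 1 with the batch label as a term and 23 within the larger batch, and 13 to 102 without 1 library (102 without HFD Sirt3 AKI replicate 1). In HFD Sirt3 AKI over chow WT, 3 members became 6 with library totals, 5 with limma on TPM and 2 to 4 without 1 library, and 165 microRNAs became 131 to 178. The member counts with library totals and limma on TPM lack the share of all tested microRNAs called there. They cannot be read as a result about the members. With library totals the median over all tested microRNAs moved too, to -0.57 in HFD WT over chow WT. It was 0.27 in HFD Sirt3 AKI over HFD WT and -0.35 in HFD Sirt3 AKI over chow WT. Arm ratios called were 36, 0 and 33 in the 3 comparisons. A pseudocount of 5 gave 56 in HFD WT over chow WT and 55 in HFD Sirt3 AKI over chow WT, an arm mean count of at least 20 gave 7 in HFD Sirt3 AKI over HFD WT, and the batch term and the larger batch gave 15 and 14 in HFD Sirt3 AKI over chow WT. Without 1 library these were 28 to 35, 0 to 0 and 26 to 32.

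Of the members' log2 fold changes under the alternatives, 27 turned direction, whether or not their call changed. Of those that kept direction, 310 kept the call or its absence, 51 lost a call and 11 gained one. In HFD WT over chow WT, library totals gave -0.56 for miR-17-5p, -0.10 for miR-20a-5p, -0.19 for miR-20b-5p and -0.40 for miR-106b-5p, and limma on TPM -0.56, -0.10, -0.19 and -0.068. Without 1 library, miR-106b-5p ran from -0.058 (without chow WT replicate 3) to 1.11. In HFD Sirt3 AKI over HFD WT, miR-17-3p was 0.0039 with DESeq2 size factors, 0.0040 with DESeq2, 0.19 with library totals, 0.17 with limma on TPM, 0.018 with only these groups, 0.19 with the batch term, 0.33 in the larger batch, and -0.27 to 0.15 when 1 library was left out (above 0 without replicate 2 of HFD WT, at 0.011, or of HFD Sirt3 AKI, at 0.15). In HFD Sirt3 AKI over chow WT, miR-20b-5p was 0.074 without the filter, 0.11 in the larger batch and -0.19 to 0.069 when 1 library was left out (0.069 without HFD Sirt3 AKI replicate 2). miR-93-5p was -0.39 with library totals, -0.40 with limma on TPM, and -0.021 to 0.36 when 1 library was left out (below 0 without HFD Sirt3 AKI replicate 1, at -0.011, or 3). miR-106b-3p was -0.13 with library totals as by limma on TPM. The miR-106b arm ratio in HFD WT over chow WT ran from -0.37 (without chow WT replicate 2) to 0.82. The cause of these changes was not tested.

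No pairing by replicate number was seen: of 9 same-numbered pairs, 2 correlated above 0.1, and a library matched its own number best in 7 of 18 choices. With 3 libraries per group this cannot exclude a pairing. With a replicate block, 154, 31 and 161 microRNAs and 5, 4 and 3 members were called in HFD WT over chow WT, HFD Sirt3 AKI over HFD WT and HFD Sirt3 AKI over chow WT. Arm ratios called with the block were 35, 0 and 32. TMM factors computed without the red cell microRNAs, an alternative chosen after seeing the data, gave 150, 32 and 163 microRNAs and 5, 4 and 3 members.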
